A study of Mus musculus with 6 samples.

Results

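Broad accessible regions are stretches of open chromatin that were called as 1 unbroken interval of 3 kb or more, counted as end minus start, on chromosomes 1 to 19 of the mouse build mm9. Of 492050 accessible regions on these chromosomes, 1023 (0.208%) were this wide, whatever their score. The regions come from ATAC-seq, in which Tn5 transposase cuts open DNA and inserts adapters, of R1 cells, a mouse embryonic stem cell line. Before differentiation the medium of the line held LIF, which keeps stem cells undifferentiated, at 1000 U/ml together with 15% Knockout Serum Replacement. The cells were made into embryoid bodies in hanging drops for 48 h and kept with retinoic acid to day 6. The labels give the dose as 0.5 mM, a unit that is uncertain because such protocols commonly use far less. All 3 ATAC-seq samples and all 3 RNA-seq samples of the study share this condition, so no group without retinoic acid can be set beside it. The regions were deposited as a joint set for the 3 ATAC-seq samples, with 1 score per region and no value per sample. The members were chosen by their width, and the score comes from the same region calling, so both are described without a test and no replicate error can be given for either.

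The RNA of these cells was high in neural genes and low in the pluripotency genes Nanog, Pou5f1 and Zfp42. Tubb3, a neuronal tubulin gene, stood at 655, 643 and 638 FPKM (fragments scaled by transcript length and library size) in RNA-seq replicates 1, 2 and 3, and Fabp7, a radial glial gene, at 919, 909 and 903. Map2, another neuronal gene, averaged 109 ± 5.14 FPKM (SD, n = 3) and Sox2, a factor of neural progenitors and stem cells, 79.5 ± 4.57. The pluripotency genes Nanog and Pou5f1 were at 0.0879 ± 0.0318 and 0.815 ± 0.0792 FPKM and Zfp42 at 2.14 ± 0.542. These 3 genes of the labelled cell type, embryonic stem cell, were thus near 0 or low in the sampled cells, while Sox2 was not. The extraembryonic endoderm genes Sparc, Gata4 and Sox17 averaged 269 ± 35.6, 14.3 ± 3.30 and 7.22 ± 1.52 FPKM. Which cells the joint ATAC-seq set draws on was not tested.

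Most accessible sites in a mammalian genome are short, a few nucleosomes wide, and mark promoters and enhancers. Wider ones are known from CpG-island promoters, from promoters that face each other, and from strings of enhancers at genes of cell identity. Wide intervals of high signal can also come from sequence that the genome holds in many more copies than its assembly does, such as satellite DNA next to centromeres, ribosomal RNA gene arrays and recently duplicated gene families, because reads from every copy are placed on the few copies present. Mouse chromosomes carry their centromere at the end where numbering starts, so the first listed bases lie nearest to it. No annotation or sequence of mm9 was used here, so the members are described by width, score, position and neighbours, and no gene or repeat is assigned to a member.

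Most broad regions lay close to the width limit. The median width was 3433 bp, with quartiles of 3179 and 3955 bp, against a median of 332 bp for the 491027 regions under 3 kb. Of the 1023 members, 565 (55.2%) were under 3.5 kb, 380 lay between 3.5 and 5 kb, 78 reached 5 kb and 4 reached 10 kb. Together they covered 3.83 Mb, which is 1.61% of the 239 Mb in accessible regions. No 2 regions of the set lay closer than 151 bp, and how nearer intervals were treated before deposit is not stated.

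Regions on both sides of the width limit varied widely in score. Just inside it, chr3:82930927-82933926, chr6:71243171-71246170 and chr4:137805422-137808421 were each 3000 bp wide, with scores of 40.9, 79.6 and 116. The next were chr15:74788823-74791824 (3002 bp, score 7.72) and chr9:121667607-121670611 (3005 bp, score 70.5). Just outside it, chr2:17976753-17979750 and chr11:51689211-51692208 were 2998 bp wide with scores of 219 and 9.27. After these came chr8:94323502-94326498 (2997 bp, score 111), chr4:35102418-35105414 (2997 bp, score 84.8) and chr1:132611661-132614656 (2996 bp, score 241). The scores thus ran from 7.72 to 116 just inside the limit and from 9.27 to 241 just outside it.

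Broad regions scored high as a rule, but not the highest. Their median score was 96.6, with quartiles of 46.7 and 187, against a median of 5.23 for regions under 3 kb. Every member scored above 5.24, the median of all regions, and 82 fell under the 90th percentile of 17.3. At or above the 99th percentile of 150 were 352 members (34.4%), while the share among regions under 3 kb was 0.93%. Among the 100 highest scores were 14 members and among the 1000 highest 98, far above the members' share of 0.208% of all regions. The 4 highest scores of all, from 2082 to 3886, belonged to regions of 547 to 1385 bp. The member with the lowest score, chr8:13000746-13003801, had 5.83 over 3056 bp.

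Per unit of length, the score of broad regions was spread from 1.34 to 341 per kb. The median was 27.2 per kb with quartiles of 12.7 and 50.5, against a median of 16.9 for regions under 3 kb. Over all regions width and score rose together (Spearman rho = 0.73 across 492050 regions, which share their libraries and caller). Among the members, whose range of width the limit cuts short, rho was 0.11 over 1023 regions. The median score was 88.9 for the 565 members of 3 to 3.5 kb, 96.6 for the 225 of 3.5 to 4 kb, 124 for the 155 of 4 to 5 kb and 140 for the 78 of 5 kb or more. In the same order, the median score per kb was 28.2, 25.98, 28.6 and 19.2.

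**Figure D1:**
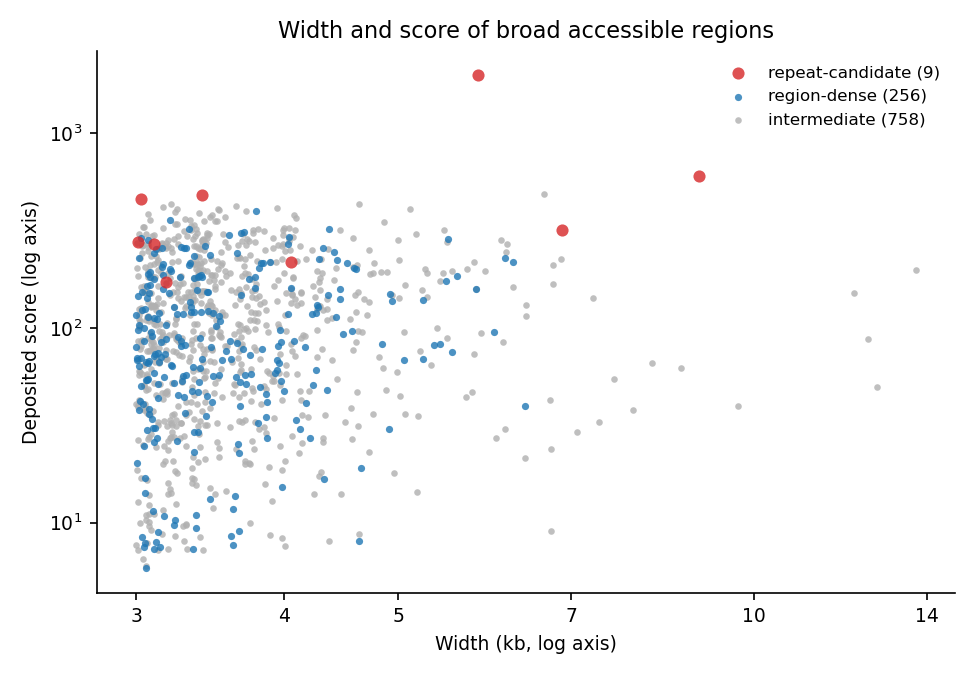
Width in kb (horizontal, log axis) against deposited score (vertical, log axis) for the 1023 broad regions, with the repeat-candidate regions in red, the region-dense ones in blue and the intermediate ones in grey. Most points lie between 3 and 5 kb with scores from 5.83 to 490, and the red point at 1988 stands alone.

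The 10 longest members varied in strength. The longest of all, chr5:143572825-143586526, spanned 13702 bp with a score of 199, or 14.5 per kb. The next, chr11:116608005-116620707, spanned 12703 bp with a score of 49.5, and chr5:10233880-10246028 spanned 12149 bp with 151. Of the rest, chr11:3036465-3048960 (12496 bp, score 88.2), chr11:3091202-3100180 (8979 bp, score 606) and chr11:3052079-3060272 (8194 bp, score 66.4) lay within 63.7 kb of each other near the start of chromosome 11. On chromosome 4 were chr4:146896195-146905878 (9684 bp, score 39.9), chr4:62167619-62175513 (7895 bp, score 38.02) and chr4:3006408-3014018 (7611 bp, score 54.8), and on chromosome 17 chr17:21404055-21412724 (8670 bp, score 62.0). Of these 10, 6 scored under 70, below the median of the members, although they were at least 7.6 kb wide.

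Broad regions were spread unevenly over the chromosomes. Chromosome 11 held 86 and chromosome 4 held 83, while chromosome 16 held 22 and chromosome 19 held 25. Per 1000 accessible regions of the chromosome, the number was highest on chromosomes 11 (2.95), 17 (2.92), 4 (2.65) and 15 (2.65) and lowest on chromosomes 16 (1.16), 6 (1.47) and 1 (1.53), with 2.08 over all 19. Per Mb between the first and last listed region it ran from 0.724 on chromosome 11 to 0.231 on chromosome 16. The highest number per 1000 regions was thus 2.54 times the lowest.

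Chromosomes with more expressed genes per accessible region tended to hold more broad regions, and accessible regions as a whole also followed expressed genes. RefSeq (GRCm38.p6, used for chromosome membership alone) lists 20665 protein-coding genes on these chromosomes, of which 18495 (89.5%) were in the FPKM table and 10810 had at least 1 FPKM in every replicate. Across the 19 chromosomes, broad regions per 1000 regions and expressed genes per 1000 regions gave a Spearman rho of 0.60 and a Pearson r of 0.59. Without chromosomes 11 and 19, the farthest from the median in expressed genes, r was 0.58 and rho 0.57. Both measures have the number of regions as divisor, and no p-value is given. With the 828 members outside clusters alone, rho was 0.48. Per Mb, rho with expressed genes was 0.65 for broad regions and 0.75 for all regions, so the trend cannot be called particular to broad ones. With all protein-coding genes, whatever their expression, rho for broad regions was 0.51 per 1000 regions and 0.61 per Mb. The trend can therefore not be called particular to expressed genes either. Chromosomes 7 and 19, with 29.6 and 30.8 expressed genes per 1000 regions, held 2.16 and 2.04 broad regions per 1000, well under chromosome 17 with 28.2 and 2.92.

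**Figure D2:**
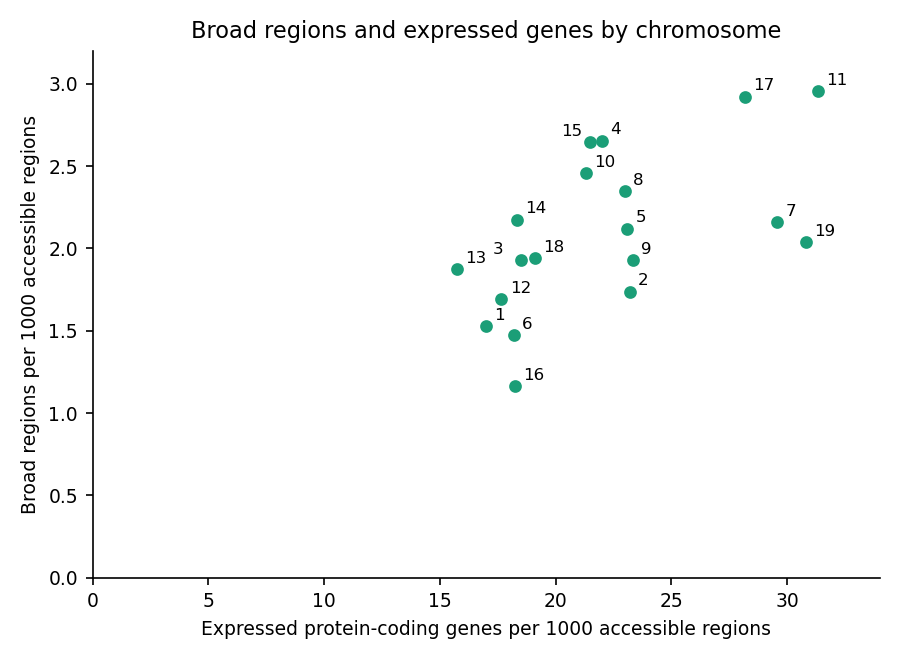
Expressed protein-coding genes (horizontal) and broad regions (vertical), both per 1000 accessible regions, with 1 labelled point for each of 19 chromosomes. Chromosomes 11 and 17 stand at the top with 2.95 and 2.92 broad regions per 1000, and chromosome 16 at the bottom with 1.16.

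Along the chromosomes, most broad regions stood alone and a minority was grouped. The distance from a member to the nearest other one had a median of 565 kb with quartiles of 171 and 1417 kb, and 358 members had no other within 1 Mb. When members with at most 100 kb between their edges were joined, 195 members (19.1%) fell into 85 clusters and 828 stayed single. Of the clusters, 73 were pairs, 8 held 3 members, 2 held 4, and the largest held 6 and 11. Members of the longest class were grouped most often, with 22 of 78 (28.2%) of those of 5 kb or more in clusters, against 97 of 565 (17.2%) of those of 3 to 3.5 kb. Cut into bins of 1 Mb, 734 of 2412 bins held a member and 54 (2.24%) held 3 or more. These 54 bins held 199 members, 19.5% of the total.

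The largest cluster lay at the very start of chromosome 11. There, 10 members followed each other from chr11:3029772 to 3100180, over 70.4 kb, with gaps of 198 to 4662 bp, and filled 84.0% of that length. An eleventh member followed after 88215 bp and ended at 3193337. In order along the chromosome the 11 scores were 116, 88.2, 66.4, 47.0, 31.7, 36.3, 31.2, 68.5, 42.9, 606 and 148. The tenth reached 67.5 per kb, while the median over the cluster was 10.2 per kb. These members had 25 to 45 neighbours within 100 kb, below the median of 56 of regions under 3 kb. The first 10 lay 29479 to 90909 bp from the first listed region, so part of their window could hold no region. Of the neighbours, 17 to 20 were in the top 10% of scores. These include the cluster's own members, which all scored that high: 9 or 10 for each of the first 10 and 2 for the eleventh.

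A second concentration lay near the distal end of chromosome 4. From chr4:144997031 to 146992728, limits set by its outer clusters after the positions were seen, stood 16 of the 83 members of chromosome 4. Their scores lay between 14.6 and 84.6 with a median of 37.6, against a median of 83.3 for the other 67 members of that chromosome. Their score per kb ran from 4.08 to 18.4, with a median of 8.91, so none reached the 27.2 that was the median of the members. The 6-member cluster there ran from chr4:146709122 to 146992728, over 284 kb, and a 4-member cluster from chr4:144997031 to 145039710 had 3062 to 3466 bp wide members with nearly equal scores of 36.4, 38.9, 41.5 and 41.8. In the 1 Mb bins from 145 and 146 Mb stood 8 and 7 members among only 100 and 106 regions in all, whereas bins with no member had a median of 181 regions.

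Other crowded bins held many more regions, around members that were strong in some bins and weak in others. The bin from 69 Mb on chromosome 11 held 7 members with a median score of 121 among 313 regions, and that from 127 Mb on chromosome 10 held 6 with a median of 102 among 282. The bins from 134 Mb on chromosome 7 and from 73 Mb on chromosome 8 held 5 members each, with median scores of 209 and 198. Their medians of 65.99 and 63.2 per kb were the highest among the bins with at least 4 members. Those from 27 Mb on chromosome 17 and from 83 Mb on chromosome 15 held 5 and 4 members of low score (medians of 18.6 and 20.4) in bins dense with regions (358 and 375). Bins with 3 or more members had a median of 294 regions and 41.5 strong ones, against 181 and 15 in bins without a member.

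**Figure D3:**
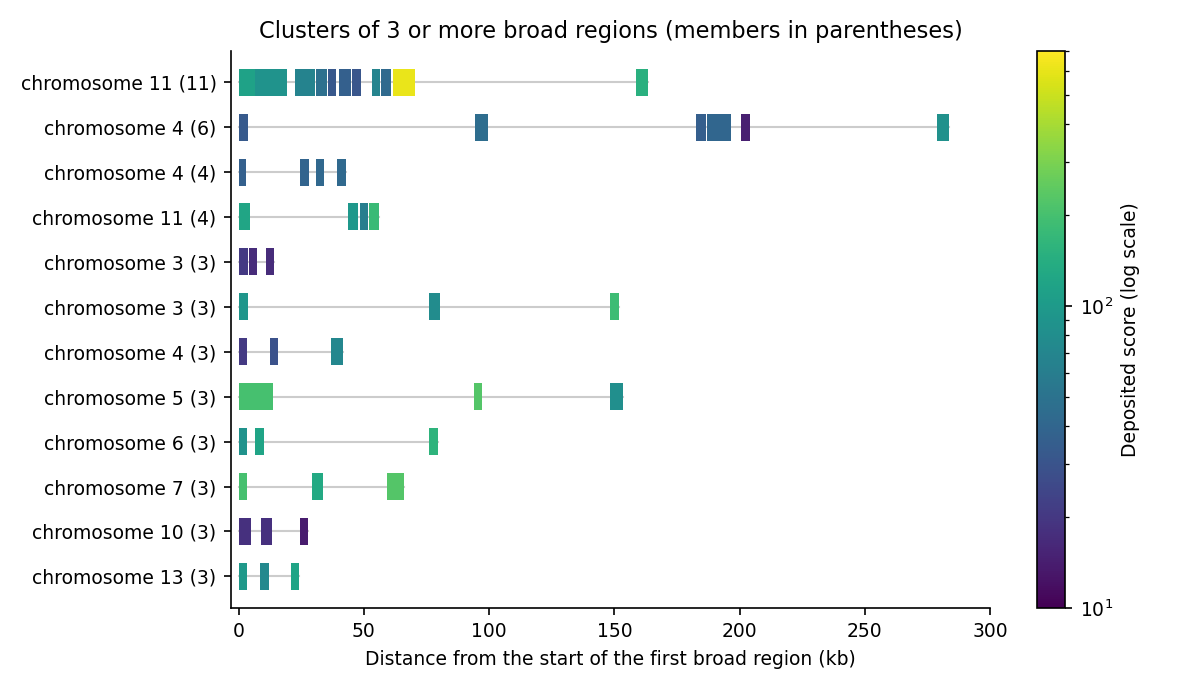
The 12 clusters of 3 or more broad regions, with the largest at the top. Each rectangle is a member drawn to scale by its distance in kb from the start of the first member, coloured by score on a log scale. In the top row 10 members fill 84.0% of 70.4 kb and the eleventh follows after 88215 bp, while the 6 members of the second row are spread over 284 kb.

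Members that lay close together had less score per kb. Joining members at gaps of at most 5 kb, a distance chosen after the clusters were seen, gave 18 tight runs with 47 members on 11 chromosomes. Their median score was 47.0 with 11.2 per kb, against 82.3 with 21.7 per kb for the other 148 clustered members and 110 with 29.5 per kb for the 828 single ones. Of the 47, 25 (53.2%) were at or under the lower quartile of the members in score per kb, and 21 (44.7%) had no more neighbours than the lower quartile of 40 of regions under 3 kb. Of the single members, 22.9% and 20.9% did. Members of a run are not independent, and the run at the start of chromosome 11 alone supplied 10 of the 47. Those 10 had 25 to 35 neighbours, so all are among the 21. Runs also differed, with a median score per kb from 3.92 at chr10:22017010-22030126 to 37.6 at chr18:64498210-64505937.

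Beside that on chromosome 11, the tight runs of 3 lay at chr3:25417878-25432023, chr4:146891578-146913217 and chr11:69221868-69234435. The first had scores between 16.9 and 20.3 and filled 71.5% of its 14.1 kb. The second ran between 14.6 and 39.9 and filled 81.3% of 21.6 kb. The third was stronger, with 60.5 to 177, and filled 90.7% of 12.6 kb among a median of 66 neighbours. Pairs at chr16:3231580-3242166 (30.2 and 33.7) and chr14:45117503-45126644 (77.03 and 124) stood among few regions, with medians of 20 and 14 neighbours. A pair at chr17:31037502-31047248 (25.4 and 14.1) had 103 and 107 neighbours, the most of any members.

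**Figure D4:**
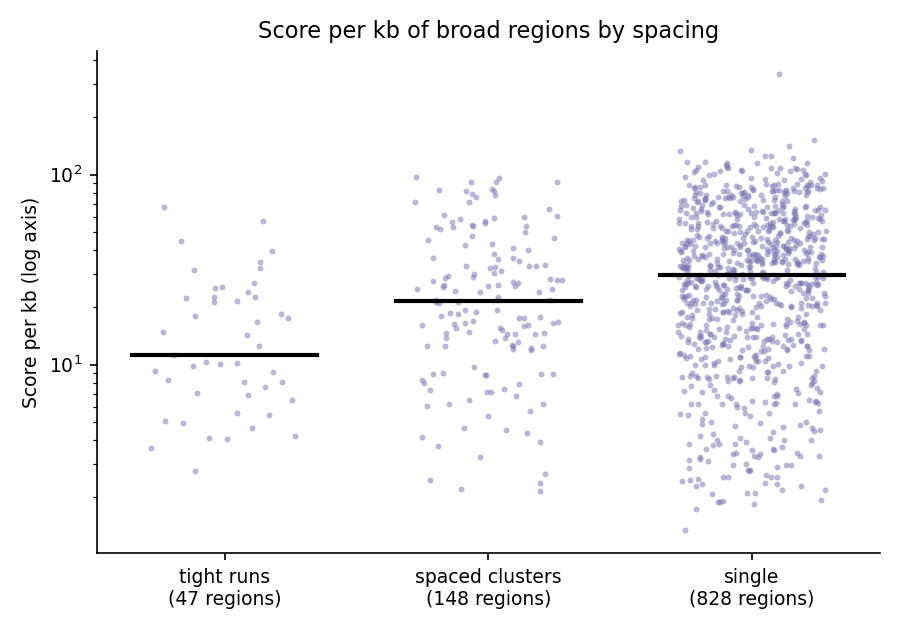
Score per kb (log axis) of the 47 members in tight runs, the 148 other members in clusters and the 828 single members, with a point for each member and a bar at the median. The medians are 11.2, 21.7 and 29.5 per kb, and the ranges overlap.

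Broad regions had about as many regions around them as other regions did, and more strong ones. A member had a median of 59 other regions within 100 kb of its edges, with quartiles of 44.5 and 69, against a median of 56 with quartiles of 40 and 69 for regions under 3 kb. At or above 69 neighbours stood 257 members (25.1%), against 25.6% of regions under 3 kb, which is the background share. At or below 40 stood 217 (21.2%), against 25.4%. Counting only strong neighbours, those with a score in the top 10% of all regions, the median was 7 for members and 5 for regions under 3 kb, and 469 members (45.8%) had 8 or more, against 27.4%. No strong neighbour was found for 18 members (1.76%), against 6.61%. Strong neighbours were a measure added after the data were seen, and the caller's own treatment of nearby signal was not tested.

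The nearest region was also closer. It lay within 1 kb for 632 members (61.8%), against 48.7% of regions under 3 kb, and the median gap was 678 bp against 1039 bp. The 256 members with the lowest scores, up to 46.7, had the nearest neighbours, at a median gap of 447 bp and 72.7% within 1 kb. For the 256 with the highest scores, from 188 upwards, the gap was 913 bp and the share 52.0%. Of these, 64 of the weakest and 28 of the strongest were in clusters.

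**Figure D5:**
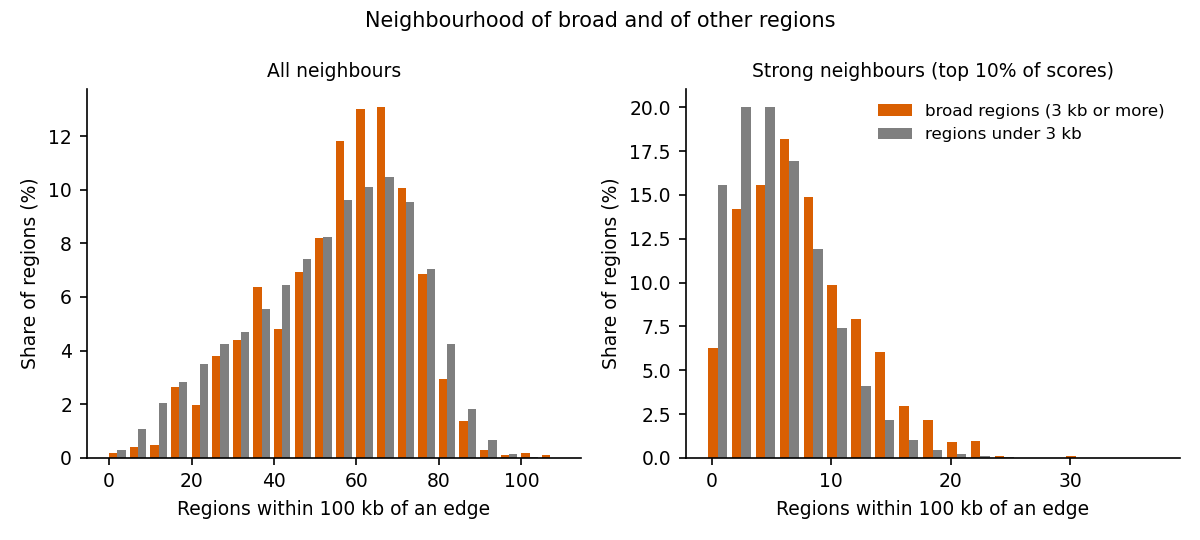
Share of regions in percent (vertical) by the number of other regions within 100 kb (horizontal), for broad regions in orange and regions under 3 kb in grey, counting all neighbours on the left and strong ones on the right. On the left the medians are 59 and 56, and on the right 7 and 5.

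To set likely repeat artefacts apart from crowded loci, the members were divided by rule into 3 classes. A repeat-candidate region had at most 40 neighbours within 100 kb with a score per kb at or above the 99th percentile of all regions (138), or lay within 1 Mb of the first or last listed region of its chromosome with a score at or above the 99th percentile (150). A region-dense one had at least 69 neighbours and was no repeat candidate. This gave 9 repeat-candidate, 256 region-dense and 758 intermediate regions. The 9 are 0.88% of the members, and 0.421% of regions under 3 kb met the same rule. The classes describe the surroundings in this set, since neither repeat content nor local gene density was measured. In the largest cluster only chr11:3091202-3100180 was a repeat candidate, and its other members were intermediate. Of these, chr11:3188396-3193337 missed the score limit with 148. All members of the distal concentration on chromosome 4 were also intermediate. The 9 can therefore not be read as all members that may come from repeats.

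The repeat candidate with the highest score was chr17:39979941-39985777. It had a score of 1988 over 5837 bp, or 341 per kb, the highest of the members by either measure and the fifth highest score of all regions. It had no region at all within 100 kb, and the nearest lay 502053 bp before it and 353109 bp after it. The next highest member reached 606, so this region stood 3.28 times above it. A gap of 50 kb or more on a side was rare, seen for 8 members (0.782%) and 0.896% of regions under 3 kb.

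Only 2 further members met the rule on few neighbours and high score per kb, and both had a region close by. At chr17:21081071-21084484 a score of 481 over 3414 bp (141 per kb) stood among 19 neighbours, of which 1 was strong. The nearest region lay 162 bp away. At chr13:14154438-14157465 a score of 462 over 3028 bp (153 per kb) stood among 37 neighbours with 4 strong ones, close to the limit of 40. Its nearest region lay 706 bp away. Reaching that score per kb was rare among members, at 3 of 1023 (0.293%) against 1% of regions under 3 kb. By definition a wide region needs a larger score to reach it, and why the shares differ was not tested.

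The other 6 repeat candidates lay near chromosome ends. They are 17.1% of the 35 members there, a lower share at or above the score limit than the 34.4% of all members. Regions under 3 kb went the other way, with 1.81% of those near ends at or above the limit against 0.93% of all. At the centromeric side the candidates were chr11:3091202-3100180 (score 606), chr12:3233945-3240824 (318), chr7:3643800-3646908 (271) and chr10:3133255-3136436 (173). At the far side they were chr4:154935980-154938990 (276) and chr19:61300556-61304609 (219). They were not alike in their surroundings. Those on chromosomes 12 and 19 had 24 and 18 neighbours with 2 and 3 strong ones. Those on chromosomes 10 and 4 had 74 and 56 neighbours, at or above the median of 56 of regions under 3 kb. The candidate on chromosome 19 lay 37314 bp from the last listed region, so its window was cut short on that side. The part of repeats in these 9 scores was not tested.

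Members were somewhat more common near chromosome ends than other regions were. Within 1 Mb of the first or last listed region lay 35 members (3.42%), against 1.46% of regions under 3 kb, and 11 of the 35 were the cluster on chromosome 11. The first 10% of the listed span held 114 members (11.1%, against 8.76%) and the last 10% held 144 (14.1%, against 12.8%). Some end members were weak. The member chr4:3006408-3014018 was the first listed region of its chromosome, 7611 bp wide with a score of 54.8 and 3 neighbours. The member chr3:3025917-3032647 had the lowest score per kb of all, 1.34, with a score of 9.03 over 6731 bp and no strong neighbour. These weak end members fell outside the repeat-candidate rule, which asks for a high score.

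Isolated members, here those with at most 40 neighbours, had a lower median score than all members, but a higher 95th percentile. They were not far from any region, since the gap to the nearest had a median of 723 bp. The 217 members with at most 40 neighbours had a median score of 87.7 with quartiles of 38.9 and 180. The upper quartile of all members was 187. The median was 96.6 for all members and 81.2 for region-dense ones. In the same order, the score at the 95th percentile of each group was 362, 318 and 262. At or above the 99th percentile of all regions were 70 of the 217, a slightly lower share than the 352 of all 1023 members (34.4%). The 5 with the fewest neighbours included, beside the regions on chromosomes 17 and 4 described above, chr4:17779061-17782080 (5 neighbours, score 101), chr14:15177698-15181425 (8, score 191) and chr4:146020743-146025303 (9, score 38.9). Across the 1023 members rho between score and neighbours was -0.09.

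The 256 region-dense members were ordinary in width and a little weaker in score. Their median width was 3384 bp against 3450 bp for intermediate members, and their median score 81.2 against 104. They were found on all 19 chromosomes, from 24 on chromosome 11 and 22 each on chromosomes 2 and 4 down to 4 on chromosome 16 and 3 on chromosome 19. As a share of a chromosome's members they were most common on chromosomes 6 (37.2%), 1 (35.1%) and 17 (33.3%) and least on chromosomes 14 (10.6%) and 19 (3 of 25). Of the 256, 144 (56.2%) also had 8 or more strong neighbours, against 44.0% of those regions under 3 kb that had at least 69 neighbours.

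The most crowded members varied in strength. Beside the pair on chromosome 17, they were chr8:124663543-124667528 with 100 neighbours and a score of 15.2, chr10:41993266-41998769 with 95 and a score of 288, and chr8:11307310-11310439 with 94 and a score of 74.3. Their strong neighbours numbered 1, 3 and 11, and the pair on chromosome 17 had 2 and 3. In 4 of these 5 cases the strong neighbours were fewer than 7, the median of the members. In clusters were 30 of the 256 region-dense members (11.7%), against 44 of the 217 isolated ones (20.3%) and 19.1% of all members. Of those 44, 10 were the single run at the start of chromosome 11, and the difference was not tested.

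Among the highest scores were also members that met neither rule. These were chr5:26583653-26590296 (score 490 over 6644 bp, 43 neighbours), chr4:71858466-71863100 (435), chr11:23154922-23158134 (432), chr18:73730904-73734548 (423), chr1:108067379-108070538 (420) and chr3:135099948-135103897 (416). They had 28 to 59 neighbours, from below the lower quartile of 40 to above the median of 56, and 2 to 10 strong ones. The region chr11:23154922-23158134 came close to the repeat-candidate rule, with 31 neighbours and 135 per kb against the limit of 138.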

How the data were processed

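Accessible regions were deposited by the authors as 1 set shared by the 3 ATAC-seq samples, in which a region has a chromosome, start, end and score. What the deposited score measures, the region caller, its threshold, any pooling and the Tn5 offset are not stated in the sources used here. RNA-seq values of 3 samples were deposited with no named unit and were read as FPKM, since the submitters' processing notes name Cufflinks; they also name Bowtie and mm9. Read depth is unknown for both assays, and no interval is given. Whether replicates came from separate cultures is not stated.

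Starts are printed 1-based. Neighbours are other regions with an edge within 100 kb, clusters join members with gaps of at most 100 kb, and percentiles are over the 492050 regions of chromosomes 1 to 19. With 1 joint set there is no replicate, so no test was made. Functions were tested on simulated regions. Named regions are the 10 longest, the 10 highest scores, 5 on each side of the width limit, the 5 with most and with fewest neighbours, the repeat candidates and the largest clusters; the weakest members, the tight runs, crowded bins and chr3:3025917-3032647 were chosen after their values were seen. Members and lists were chosen with earlier results of these data known. Python 3.11.15, pandas 2.3.3 and NumPy 2.4.6 were used.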

Additional observations from a re-analysis of the deposited data

Results flagged for a closer look

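Outside chromosomes 1 to 19, chromosome X held 11 regions of 3 kb or more among 3131 regions, or 3.51 per 1000, and chromosome Y held 8 among 52. They were looked at because the comparisons above do not use these chromosomes. The widest was chrY:2779527-2786381, of 6855 bp with a score of 227, and on chromosome X chrX:120115399-120119846, of 4448 bp with a score of 151. The part of copy number and mapping in these was not tested.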

How the results depend on the processing

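No paired analysis was possible because the regions form a joint set with no value per sample and no test was made. The number of broad regions depends on the width limit, with 5968 at 2000 bp and 233 at 4000 bp in place of 1023. It was 1160 on merging regions within 200 bp and 1042 with all chromosomes. A score limit at the median of all regions could not change it (1023), because every member scored above that median. The ratio of the highest to the lowest chromosome, 2.54, was 1.63 at 2000 bp, 7.79 at 4000 bp and 2.29 after merging. The share of members in clusters, 19.1%, was 12.1% with gaps of 50 kb, 47.4% with 500 kb, 57.3% at a width of 2000 bp and 12.02% at 4000 bp. The ratio of median neighbours, members over regions under 3 kb, was 1.05; it was 1 with a window of 50 kb, 1.04 with 500 kb, 1.14 for neighbours at or above the median score, 1.04 for neighbours under 3 kb alone and 1.4 for strong neighbours, the last 2 chosen after seeing the data. The 9 repeat candidates became 61 at the 95th percentile, 2 when the top 0.1% was asked for, and 26 within 3 Mb of the ends, and stayed 9 in number with a window of 500 kb, while region-dense members numbered 253 to 279. Leaving out a replicate of 3 cannot move a marker's mean by 1 SD, so this gives no measure of stability for the marker genes. Unknown depth and the lack of values per sample limit every statement on score.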
